A study of Mus musculus with 24 samples.

Results

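The values compared here come from 6 of 24 Affymetrix arrays. RNA was taken from MLO-Y4, an osteocyte-like mouse cell line used as a model of the cells embedded in bone. Counted in the order of the deposited table, arrays 6, 14 and 22 (called set 6) were compared with arrays 5, 13 and 21 (called set 5), 3 against 3, in a fit that also held the 6 other sets of every 8th array. The sets were chosen by the measured log2 values themselves, because the resemblance between arrays repeats every 8 columns whereas the sample labels change every 3 columns. The differences between the sets are therefore a description of these arrays and no test of a treatment or of a time.

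In the experiment, cells on collagen-coated glass slides received fluid flow for 2 h, oscillating at 1 Hz and reaching a shear of 10 dyn/cm2, or stayed in static chambers (sham), and were collected at 0, 2, 8 or 24 h afterwards. Each of these 8 labelled groups has 3 arrays. Array 5 is labelled flow 0 h replicate 2 and array 6 flow 0 h replicate 3. Array 13 is labelled sham 8 h replicate 1 and array 14 sham 8 h replicate 2. Array 21 is labelled sham 24 h replicate 3 and array 22 flow 24 h replicate 1. Whether the columns or the labels stand in the wrong order could not be settled here, so the labels are given only as deposited. By these labels both sets mix labels of flow and sham and of 3 times, and the neighbouring arrays 5 and 6, and 13 and 14, carry the same label. All samples come from 1 immortalized cell line, and the labels do not say that replicates were separate cultures. Below, the difference of a gene is the mean log2 value of set 6 minus that of set 5, with 1 value per gene from its brightest probe set, for 12393 genes.

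Osteocytes sense fluid movement around their processes and signal to osteoblasts and osteoclasts, among other ways through prostaglandins and secreted cytokines. The C-X-C chemokines Cxcl1, Cxcl2 and Cxcl5 attract neutrophils through the receptor Cxcr2. Their genes, like those of Il6, Lif and Lcn2, are known targets of inflammatory signaling, in which the transcription factor NF-κB is released from its inhibitors, the IκB proteins, and enters the nucleus. AP-1, a dimer of Fos and Jun proteins, is a second factor that acts on many of the same genes.

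The upstream sequences of 4 of the genes with higher values in set 6 are shown because the factors named above bind short motifs of this kind. These 4 were picked by hand, and matches were not compared between higher and lower genes. The sequences are the 250 bases before the annotated start of each gene, from RefSeq on build GRCm38.p6, all on the plus strand. Cxcl1 lies at chr5:90890995-90891244, Cxcl2 at chr5:90903649-90903898, Il6 at chr5:30012864-30013113 and Lif at chr11:4257318-4257567. Capitals mark matches on either strand to the κB motif GGGNNTTNCC or to the AP-1 motif TGANTCA.
Cxcl1: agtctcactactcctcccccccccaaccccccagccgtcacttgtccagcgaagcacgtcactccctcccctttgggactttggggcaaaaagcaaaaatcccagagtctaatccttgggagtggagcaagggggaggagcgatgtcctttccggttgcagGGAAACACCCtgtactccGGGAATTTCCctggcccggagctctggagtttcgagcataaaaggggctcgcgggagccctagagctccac
Cxcl2: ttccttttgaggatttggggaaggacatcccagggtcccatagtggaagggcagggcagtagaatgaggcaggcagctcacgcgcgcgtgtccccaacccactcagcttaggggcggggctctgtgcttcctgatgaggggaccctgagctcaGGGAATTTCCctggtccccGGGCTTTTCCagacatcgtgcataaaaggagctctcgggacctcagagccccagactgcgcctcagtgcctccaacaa
Il6: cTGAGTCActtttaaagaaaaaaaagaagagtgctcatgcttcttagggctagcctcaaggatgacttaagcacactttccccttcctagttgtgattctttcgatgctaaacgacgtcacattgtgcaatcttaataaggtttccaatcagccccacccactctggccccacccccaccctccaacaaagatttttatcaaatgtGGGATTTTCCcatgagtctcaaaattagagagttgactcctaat
Lif: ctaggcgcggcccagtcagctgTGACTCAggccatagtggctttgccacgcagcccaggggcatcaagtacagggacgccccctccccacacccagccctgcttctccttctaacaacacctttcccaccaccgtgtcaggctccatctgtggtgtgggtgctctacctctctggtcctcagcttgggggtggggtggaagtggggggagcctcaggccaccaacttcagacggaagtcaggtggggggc
Cxcl1 and Cxcl2 each held 2 κB matches and no AP-1 match. The longest run of letters that both share, GGGAATTTCCCTGG, has 14 bases and begins with 1 of these matches, 71 bases before the start of Cxcl1 and 97 before that of Cxcl2. Il6 held 1 κB match 44 bases before its start and 1 AP-1 match 249 bases before it. Lif held no κB match in this window and 1 AP-1 match. Of 32851 promoter windows of the same length, 4.11% held the κB motif and 6.75% the AP-1 motif. The matches are a description of the letters in these windows. No upstream sequence was shown for Cxcl5.

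Each of the 6 arrays resembled its neighbour in the other set more than any array of its own set. After the mean of each gene over the 24 arrays was subtracted, the correlation across genes was 0.59 between arrays 5 and 6, 0.60 between arrays 13 and 14 and 0.50 between arrays 21 and 22. Between arrays of the same set it ran from 0.19 to 0.40, and between arrays of different sets that are not neighbours from 0.07 to 0.35. With the other 18 arrays the 6 arrays correlated between -0.57 and 0.37. Array 5 correlated at 0.37 with array 7, above its 0.30 and 0.24 with arrays 13 and 21 of its own set. Array 6 correlated at 0.34 with array 8, above its 0.32 with array 22 but below its 0.40 with array 14. The highest values of arrays 13, 14, 21 and 22 with the other 18 arrays were 0.01, 0.04, 0.13 and 0.10. The nearest array was the neighbour in the other set for 6 of 6 arrays, and it carried the same label for 4 of them. Of the sum of squares over the 6 arrays and all genes, 62.5% lay between the 3 pairs of neighbours (2 degrees of freedom), 16.9% between the 2 sets (1 degree of freedom) and 20.6% in the remainder (2 degrees of freedom). Genes are not independent replicates, and no p is attached to these correlations. Because the pairs differ more than the sets, values are given below pair by pair as well as by set. Where 1 array is left out, its neighbour stays, so that the level of the pair enters the difference of the set means.

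**Figure D1:**
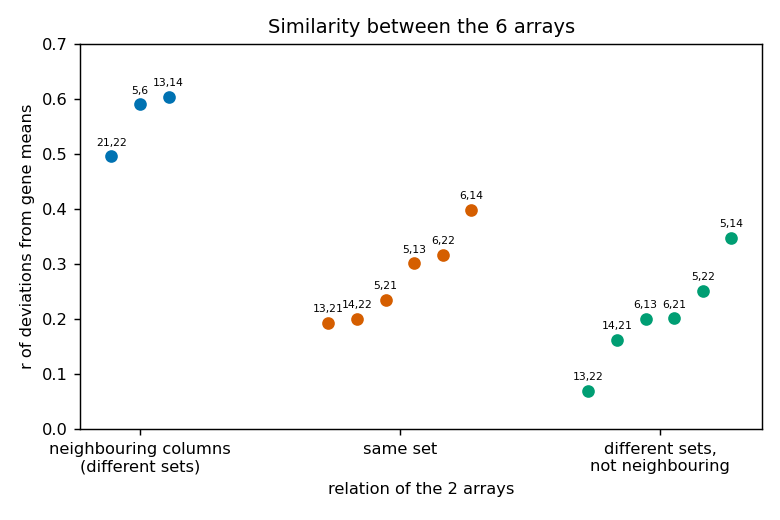
Correlation across 12393 genes of the deviations from each gene's mean over 24 arrays (vertical axis), for each pair of the 6 arrays, which are numbered beside the points. The 3 neighbouring pairs, at 0.50 to 0.60, lie above all pairs within a set, at 0.19 to 0.40.

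No gene differed 2-fold between the sets. The difference ran from -0.67 to 0.81 over all genes, with a standard deviation over genes of 0.0929, and its size was at least 0.5 in 8 genes, of which 7 were higher and 1 was lower in set 6. Of all 12393 genes, 7244 had a higher mean in set 6 and 5149 a lower one. The 6 values did not overlap between the sets for 769 genes that were higher in set 6 (6.21% of all genes) and 434 that were lower (3.5%). All 3 neighbouring pairs went the same way in 2774 genes that were higher (22.4%) and 1573 that were lower (12.7%). This balance turned with the scaling, since centring each array on its median left 358 genes higher and 797 lower without overlap, and a further quantile normalization 569 and 619. After centring, 5132 of all 12393 genes had a higher mean. The limma fit over the 8 sets called 0 genes (0%) at an adjusted p under 0.05 (Benjamini-Hochberg), and the fit with the neighbouring pairs as a block also called 0 (0%). At an unadjusted p under 0.05 limma marked 292 genes as higher (2.36%) and 139 as lower (1.12%), and with the pair block 706 and 352. These shares are given as background for the counts below, and since the sets were chosen on the same values nothing is read from them. Of the 50 genes with the largest differences in size, 48 had the same sign in all 3 pairs, 30 had a mean under a log2 value of 6, and 31 were among the 5% of genes that varied most over all 24 arrays. As a check of RNA quality, the 3′ minus the 5′ control probe set was taken for beta-actin. On the log2 scale it averaged 0.182 in set 5 and 0.215 in set 6, and that of Gapdh -0.167 and -0.134. The pairs were not alike. On arrays 21 and 22 beta-actin was at 0.150 and 0.242 and Gapdh at -0.1725 and -0.1005. Arrays 5 and 6 went the same way, at 0.199 and 0.232 and at -0.166 and -0.128. Arrays 13 and 14 went the other way, at 0.197 and 0.170 and at -0.163 and -0.173. The values of the sets overlapped for both controls, and their part in the differences was not tested.

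Neutrophil chemokines led the genes that were higher in set 6. Cxcl2 had log2 values of 8.09, 7.66 and 7.55 on arrays 5, 13 and 21 and of 8.94, 8.73 and 8.08 on arrays 6, 14 and 22. Each array of set 6 lay above its neighbour, and array 22 lay just below array 5, so that the sets overlapped. The means were 7.77 ± 0.28 and 8.58 ± 0.45 (SD, n = 3), a difference of 0.81 with a standard error of 0.58 from limma, and the largest of all genes. Cxcl5 was at 9.68, 9.34 and 9.36 in set 5 and at 10.44, 10.36 and 9.96 in set 6, a difference of 0.79 with no overlap. Cxcl1 was at 10.24, 9.66 and 9.84 in set 5 and at 10.89, 10.54 and 10.29 in set 6, a difference of 0.66, again with no overlap. In all 3 genes the step was smallest between arrays 21 and 22 and largest between arrays 13 and 14. Cxcl2, Cxcl1 and Cxcl5 also held ranks 1, 2 and 3 of the standard deviation over all 24 arrays, so that the set difference is part of a wider variation of these genes. Cxcl11, a ligand of the receptor Cxcr3, was at 7.97, 7.67 and 8.88 in set 5 and at 8.58, 8.12 and 9.01 in set 6. Among the 11 C-X-C chemokines measured, 7 had a higher mean in set 6, 6 were higher in all 3 pairs and 0 were lower in all 3, with a median difference of 0.25 beside 0.02 over all genes. That median was 0.06 without array 13 and also 0.06 without array 22.

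C-C chemokines, which attract monocytes and T cells, differed by less. Ccl2, the main monocyte chemokine, was at 11.78, 11.10 and 12.04 in set 5 and at 12.19, 11.67 and 12.21 in set 6, a difference of 0.38. Ccl7, which also acts on monocytes, was at 10.80, 9.96 and 11.11 in set 5 and at 11.21, 10.61 and 11.37 in set 6, a difference of 0.44. Both genes were lowest in the pair of arrays 13 and 14, and the sets overlapped although each array of set 6 lay above its neighbour. Ccl5, a T cell chemokine, was bright in both sets, between 12.54 and 13.16, with a difference of 0.20. Without array 13 the differences of Ccl2, Ccl7 and Ccl5 were 0.11, 0.11 and 0.06. Of 15 measured C-C chemokines and Cx3cl1, 12 had a higher mean in set 6. In all 3 pairs 7 were higher (46.7%, beside 22.4% of all genes) and 1, Ccl9, was lower, with a difference of -0.13. A mean of at least 6 was reached by 7 of the 15. The median of the list was 0.13, and it was 0.06 without array 13 and 0.05 without array 22.

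Il6, Lif and Il33 were higher in set 6 in all 3 pairs. Il6, a cytokine that acts on bone resorption and the acute phase, was at 6.90, 5.62 and 6.62 in set 5 and at 7.38, 6.66 and 7.15 in set 6, a difference of 0.68 with overlap. Array 13 was low, and without it the difference was 0.31. Lif, leukemia inhibitory factor of the IL-6 family, was at 6.88, 7.01 and 7.03 in set 5 and at 7.41, 7.56 and 7.38 in set 6. Its means were 6.97 ± 0.08 and 7.45 ± 0.09 (SD, n = 3), without overlap of the values. The 3 steps were 0.53, 0.55 and 0.35, smallest between arrays 21 and 22. A second, dimmer probe set of Lif differed by -0.06. Il33, a nuclear cytokine of the IL-1 family, was at 8.14, 7.88 and 7.53 in set 5 and at 8.85, 8.56 and 7.96 in set 6, a difference of 0.61. Of 17 measured cytokines of the IL-1, IL-6 and TNF families 14 had a higher mean in set 6, 9 were higher in all 3 pairs and 1 was lower in all 3, with a median of 0.08.

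Lcn2, lipocalin 2, binds bacterial iron carriers and is secreted by bone cells. It was at 8.75, 7.86 and 8.21 in set 5 and at 9.62, 8.68 and 8.73 in set 6, a difference of 0.74, with arrays 14 and 22 below array 5. Saa3, a serum amyloid protein, differed by 0.47 and Hp, haptoglobin, by 0.38, both with overlap. Without 1 array the difference of Lcn2 was as low as 0.43 (array 6), that of Saa3 0.27 (array 13) and that of Hp 0.07 (array 22) or 0.13 (array 13). Ptx3, a pentraxin, differed by 0.48 without overlap but stayed at or below 5.50 on all 6 arrays, and differed by 0.29 without array 22. The list of 17 acute-phase and innate secreted proteins as a whole did not share this direction. In all 3 pairs 5 members were higher and 5 lower, with a median of 0.02 that was -0.01 after centring. The 5 lower members, Saa1, Saa2, Orm1, Orm2 and S100a9, were dim, with means under 6 over the 6 arrays. All 7 members with a mean of at least 6 had a higher mean in set 6, some by little (Serpina3n 0.01, C1ra 0.02).

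**Figure D2:**
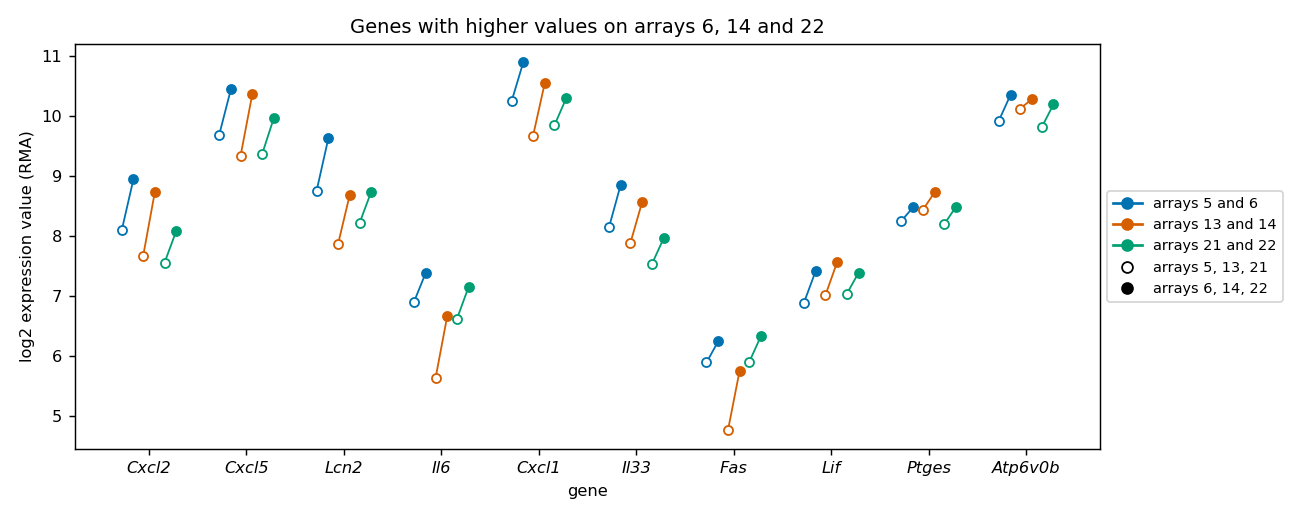
Log2 expression values of 10 genes with higher values in set 6, for the 3 neighbouring pairs of arrays (colours), with open points for arrays 5, 13 and 21 and filled points for arrays 6, 14 and 22. The filled point lies above the open one in every pair of these genes, and the level of a pair differs from that of the next, so that the sets overlap for Cxcl2, Lcn2, Il6, Il33 and Fas.

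All 14 measured NF-κB subunits, inhibitors and regulators had a higher mean in set 6, and 10 of them were higher in all 3 pairs (71.4%, beside 22.4% of all genes). Their median difference was 0.11, and it was 0.12, 0.17 and 0.09 in the 3 pairs. Nfkbie, which encodes the inhibitor IκBε, was at 4.75, 4.55 and 4.83 in set 5 and at 5.07, 4.88 and 5.24 in set 6, a difference of 0.35 without overlap at a low level. Bcl3, a nuclear IκB protein, was at 6.59, 6.35 and 6.15 in set 5 and at 6.88, 6.54 and 6.55 in set 6. Relb, a subunit of the noncanonical pathway, differed by 0.22 and Traf1, an adaptor of TNF receptors, by 0.20, each higher in all 3 pairs with overlap between the sets. In the pairs of arrays 5 and 6 and 13 and 14, which share a deposited label within each pair, 13 of the 14 genes were higher in both, beside 4149 of all 12393. After centring of the arrays 12 of the 14 genes still had a higher mean, with a median of 0.08. Among receptors, Tlr2, which recognizes bacterial lipoproteins, was at 8.99, 8.33 and 9.12 in set 5 and at 9.17, 8.72 and 9.45 in set 6. Fas, a death receptor, was at 5.89, 4.75 and 5.90 in set 5 and at 6.24, 5.75 and 6.33 in set 6, and its step was largest between arrays 13 and 14. Without array 13 the difference of Fas was 0.21 in place of 0.59 and that of Tlr2 0.06 in place of 0.30.

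Of 24 measured genes of the type I interferon response 22 had a higher mean in set 6, 15 were higher in all 3 pairs (62.5%) and 0 were lower in all 3. The sizes were small, with a median of 0.05 and medians of 0.06, 0.11 and 0.01 in the pairs of arrays 5 and 6, 13 and 14, and 21 and 22. Oasl1, an interferon-induced inhibitor of translation of Irf7, had the largest difference of the list at 0.26. Ifnb1, the interferon beta gene, was at 6.65, 6.31 and 7.58 in set 5 and at 6.92, 6.52 and 7.59 in set 6. The difference of Ifnb1, 0.17, became -0.10 without array 13 and -0.12 without array 22, and that of Oasl1 became 0.06 without array 13. Centring left 17 of the 24 genes with a higher mean, and the median of the list was -0.07 without array 13 and -0.01 without array 22.

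Prostaglandin synthesis and early response genes had smaller differences than Cxcl1, Cxcl2 and Cxcl5. Ptges, the synthase of prostaglandin E2, was at 8.25, 8.43 and 8.19 in set 5 and at 8.47, 8.72 and 8.48 in set 6. Its difference of 0.27 had a standard error of 0.09, with no overlap. Ptgs2, which encodes cyclooxygenase 2, was at 10.64, 10.40 and 10.55 in set 5 and at 10.75, 10.69 and 10.68 in set 6, a difference of 0.18. Of 14 prostaglandin genes 11 had a higher mean and 5 were higher in all 3 pairs, with a median of 0.05. Nr4a2, an orphan nuclear receptor induced early after many stimuli, had steps of 0.27, 0.42 and 0.42 in the 3 pairs and no overlap. Junb, an AP-1 subunit, was at 7.50, 7.45 and 7.65 in set 5 and at 7.71, 7.66 and 7.90 in set 6, each array of set 6 above all of set 5. Klf2, a factor known for its response to shear in endothelium, differed by 0.23 with overlap. Of 26 immediate early transcription factors 16 had a higher mean, beside 7244 of all 12393 genes. In all 3 pairs 9 were higher (34.6%). The median of the list was 0.04, and it was -0.005 without array 5 and -0.02 without array 22. Among other genes followed here, Nos2, the inducible nitric oxide synthase, was between 5.26 and 5.43 on the 6 arrays with a difference of -0.03. Pik3r1, a regulatory subunit of PI 3-kinase, differed by 0.11, with steps of -0.001, 0.09 and 0.23 in the 3 pairs. Its dimmer probe sets differed by 0.15 and -0.08. Il17rc, a subunit of the interleukin 17 receptor, differed by 0.05.

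Antioxidant genes were on the same side as the inflammatory ones. Nqo1, a quinone reductase controlled by the factor NRF2, was at 9.95, 9.78 and 9.56 in set 5 and at 10.22, 10.03 and 9.91 in set 6, a difference of 0.29 with a standard error of 0.11. Hmox1, heme oxygenase 1, differed by 0.25, with the pair of arrays 21 and 22 below the other pairs. Srxn1, sulfiredoxin, differed by 0.22 and its 3 other probe sets by 0.06 to 0.18. Without 1 array the differences were as low as 0.19 for Nqo1 and 0.08 for Hmox1 (array 21) and 0.10 for Srxn1 (array 6). Of 26 NRF2, glutathione and antioxidant genes 22 had a higher mean, 13 were higher in all 3 pairs (50%) and 1 was lower in all 3, with a median of 0.04, and 16 had a higher mean after centring. In the unfolded protein response Creld2 and Calr, which act in folding in the endoplasmic reticulum, differed by 0.18 and 0.16, and Nupr1, a stress-induced nuclear protein, by 0.16, all without overlap. Of the 31 genes of this list 20 had a higher mean and 13 were higher in all 3 pairs (41.9%), but 14 had a higher mean after centring, which moved the median from 0.03 to -0.002. Of 31 lysosome and autophagy genes 24 had a higher mean and 14 were higher in all 3 pairs (45.2%), and after centring 19 had a higher mean. Outside these lists, Atp6v0b, a subunit of the vacuolar proton pump, was at 9.92, 10.12 and 9.81 in set 5 and at 10.35, 10.28 and 10.19 in set 6, while its 2 dimmer probe sets differed by 0.12 and 0.06.

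Genes that respond to low oxygen and enzymes of glycolysis had lower values in set 6. Of 27 measured genes 19 had a lower mean, 16 were lower in all 3 pairs (59.3%, beside 12.7% of all genes) and 0 were higher in all 3, with a median of -0.07 and pair medians of -0.08, -0.09 and -0.05. Glycolytic enzymes made up many of them with small differences, such as Ldha, lactate dehydrogenase, at -0.11, Aldoa at -0.07, Tpi1 at -0.08 and Pgk1 at -0.06. Pdk1, a kinase that keeps pyruvate out of the mitochondria, was at 7.64, 9.44 and 7.54 in set 5 and at 7.55, 9.11 and 7.13 in set 6. Arrays 13 and 14 stood above the other 4 by more than 1 log2 unit, so that the step within pairs, with a mean of -0.28, was small beside the step between pairs. Without array 13 the difference of the set means was 0.34 in place of -0.28, and without array 22 it was 0.12. Car9, a carbonic anhydrase induced by low oxygen, was likewise highest on arrays 13 and 14, at 7.01 and 6.11, against 5.79 and 5.16 on arrays 5 and 6 and 5.17 and 5.29 on arrays 21 and 22. Its difference of -0.47 became 0.04 without array 13. Egln3, a prolyl hydroxylase that marks HIF for degradation, differed by -0.27 without overlap, with 3.75 as its highest value, and its second probe set differed by 0.20. Adm, adrenomedullin, was at 8.45, 8.97 and 9.76 in set 5 and at 8.24, 8.70 and 9.54 in set 6, lower in each pair by a like amount. In the 2 pairs that share a deposited label 19 of the 27 genes were lower in both, beside 3115 of all 12393 genes. After centring 5 of the 27 genes had a higher mean, with a median of -0.10, but the median of the set differences was 0.07 without array 13 and 0.005 without array 22.

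Thbs1, Ankrd1 and Col3a1 were lower in set 6 in all 3 pairs. In each of these genes arrays 21 and 22 lay above all arrays of the other pairs, which were closer in level to each other. Thbs1, thrombospondin 1, was at 7.83, 8.06 and 9.61 in set 5 and at 7.39, 7.48 and 9.43 in set 6. Each array of set 6 lay below its neighbour, but the difference of -0.40 became 0.15 without array 21, the highest of the 6. Ankrd1, a muscle ankyrin repeat protein and a much used readout of YAP, was at 7.93, 8.17 and 8.92 in set 5 and at 7.68, 7.92 and 8.52 in set 6. Its 2 probe sets differed by -0.31 and -0.27, but the difference of the brighter one was -0.02 without array 21 and -0.13 without array 6. Of 20 YAP targets and matricellular genes 16 had a lower mean and 6 were lower in all 3 pairs (30%), and 0 were higher in all 3, with a median of -0.05 that was 0.02 without array 21. Col3a1, a fibrillar collagen, was at 11.80, 11.73 and 12.42 in set 5 and at 11.59, 11.39 and 12.34 in set 6. Of 37 collagens and matrix proteins 25 had a lower mean, but the pair medians were -0.11, -0.08 and 0.08, so that arrays 21 and 22 went the other way, and the median of the list, -0.03, was 0.01 without array 6 and 0.004 without array 14. Among 27 genes of the actin cytoskeleton the pair medians were -0.07, -0.03 and 0.03, and the median of the list, -0.03, was 0.004 without array 21 and 0.01 without array 6. Cav1, the main coat protein of caveolae, was at 12.11, 12.09 and 12.34 in set 5 and at 11.89, 11.87 and 12.12 in set 6, a step of the same size in each pair. Among proteases, Mmp13, a collagenase, differed by 0.37 and Plau, urokinase, by 0.23, while Plat, the tissue plasminogen activator, differed by -0.24. Each went in the same direction in all 3 pairs, but the dimmer probe set of Plau differed by 0.04. Without 1 array the differences shrank to as little as 0.18 for Mmp13 (array 13), 0.14 for Plau (array 22) and -0.10 for Plat (array 6).

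Hoxa10, Pspc1, Ebf1, Cpt1a and Cox15 lay lower in set 6 without overlap. Hoxa10, a homeobox factor, was at 8.53, 8.61 and 8.72 in set 5 and at 8.21, 8.33 and 8.36 in set 6, a difference of -0.32 with a standard error of 0.13. Pspc1, a protein of nuclear paraspeckles, was at 7.79, 7.86 and 7.93 in set 5 and at 7.49, 7.60 and 7.62 in set 6, but its dimmer probe set differed by 0.24. Ebf1, a factor of B cell and stromal differentiation, differed by -0.23 and its other probe sets by -0.05 and -0.07. Cpt1a, which carries fatty acids into mitochondria, differed by -0.22, and its 2 other probe sets by 0.03 and -0.21. Cox15, an assembly factor of cytochrome oxidase, differed by -0.25 on its brightest probe set and by 0.05 to 0.16 on the 3 others. Scd2, a fatty acid desaturase, was at 10.03, 10.12 and 9.68 in set 5 and at 9.62, 9.78 and 9.50 in set 6, with overlap, and its relative Scd1 differed by -0.16. Chosen after its values were seen, Selenbp1 had the lowest difference of all genes, at 6.05, 6.63 and 5.93 in set 5 and at 5.52, 5.49 and 5.60 in set 6.

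**Figure D3:**
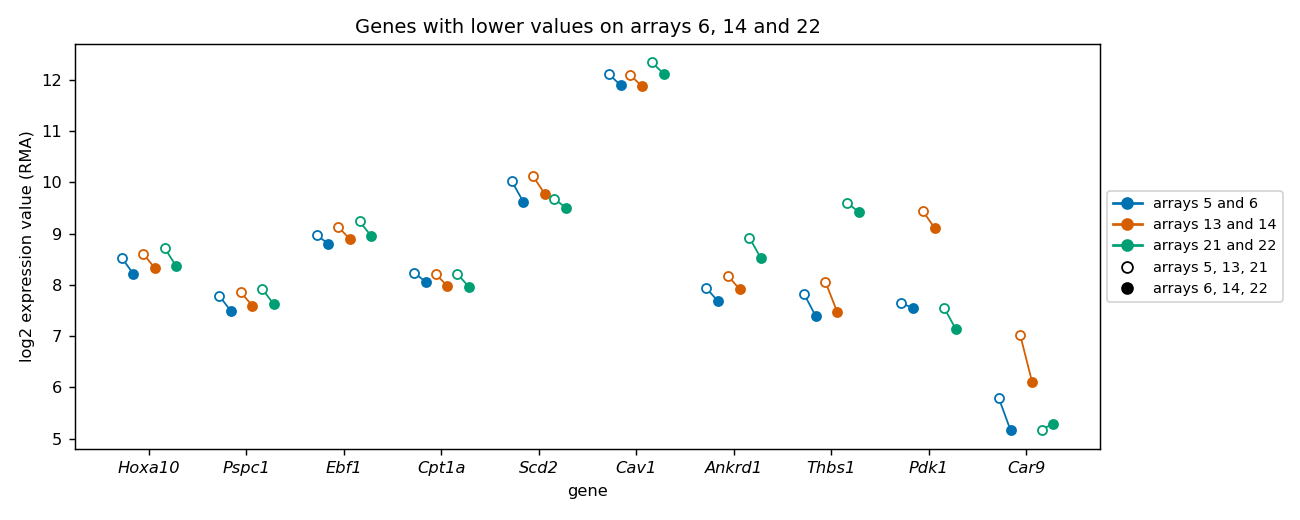
Log2 expression values of 10 genes with a lower mean in set 6, for the 3 neighbouring pairs of arrays (colours), with open points for arrays 5, 13 and 21 and filled points for arrays 6, 14 and 22. The filled point lies below the open one in all pairs except that of Car9 on arrays 21 and 22. Pdk1 and Car9 are highest on arrays 13 and 14, and Thbs1 and Ankrd1 on arrays 21 and 22.

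Genes of replication, mitosis, oxidative phosphorylation and ribosome biogenesis showed little difference. The medians were -0.01 for 28 genes of DNA replication, 0.01 for 29 genes of mitosis (-0.02 after centring), -0.0002 for 30 genes of oxidative phosphorylation and 0.02 for 28 genes of ribosome biogenesis (-0.01 after centring). In mitosis and DNA replication the pair of arrays 21 and 22 had medians above 0 (0.06 and 0.05) and the other pairs medians below 0. The p53 targets had a larger median, at 0.08, and at 0.05 after centring. Of 19 of them, among them Fas, 12 had a higher mean, beside 7244 of all 12393 genes. In all 3 pairs 7 of the 19 were higher (36.8%) and 0 were lower. All 6 histone genes measured had a lower mean, with a median of -0.03. Over the 33 lists the 3 pair medians were all above 0 in 14 lists and all below 0 in 4, and 0 members of any list were called by limma at an adjusted p under 0.05. Cell type markers were checked on the same arrays. Of the osteocyte markers, Pdpn (12.55 to 12.73) and Gja1 (12.89 to 13.04), which encode podoplanin and connexin 43, were bright and Phex, an endopeptidase of mineralization, was at 7.73 to 8.40. Sost, Dmp1, Mepe, Fgf23 and Dkk1 were below 6 on all 6 arrays, so that the defining markers of mature osteocytes were not seen at a high level. Sost, which encodes the Wnt inhibitor sclerostin, differed by 0.26 without overlap at a level of 4.28 to 4.89, and by 0.02 on its other probe set. The markers of osteoclasts and macrophages summed to 38.10 to 39.11 in set 5 and to 38.48 to 38.66 in set 6. Ptprc (3.10 to 3.58), Adgre1 (4.37 to 4.60), Itgam (3.25 to 4.08) and Cd68 (4.96 to 5.71) were dim on all 6 arrays, and of the 7 markers Ctsk, at 11.48 to 11.64, had a mean of at least 6.

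**Figure D4:**
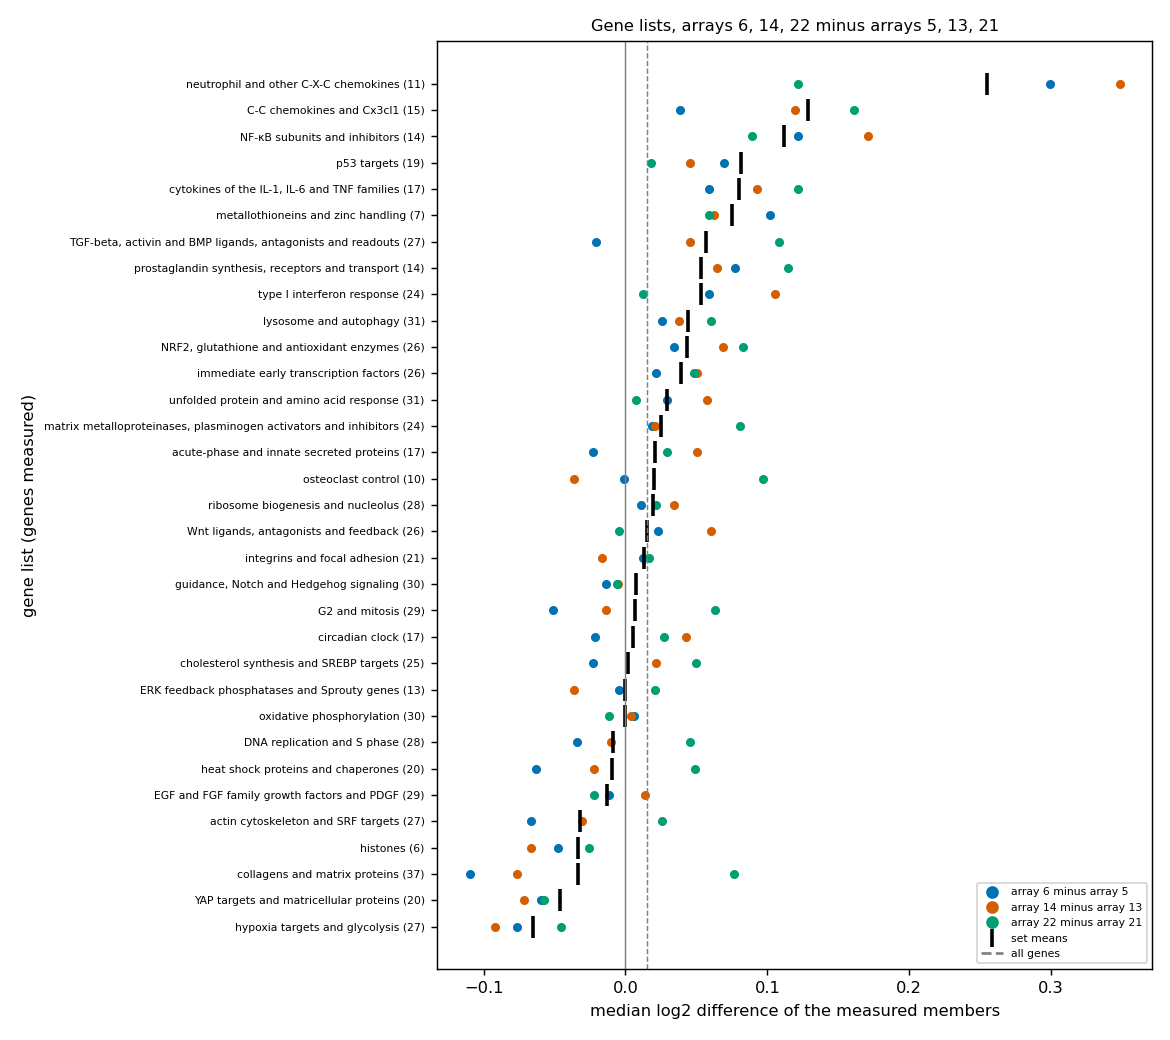
Median log2 difference of the measured members of 33 gene lists (rows, with the number of genes measured), as array 6 minus 5, array 14 minus 13 and array 22 minus 21 (points) and as the difference of the set means (bars). The chemokine and NF-κB lists lie to the right of the median of all genes, 0.02 (dashed), and the hypoxia and glycolysis list lies lowest at -0.07.

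The genes that led the difference had different places among the 8 sets. Cxcl2 was highest in set 4 (11.25 ± 1.58, SD, n = 3), followed by set 2 (10.47 ± 0.60), set 3 (9.13 ± 0.68), set 1 (9.12 ± 0.86), set 6 (8.58 ± 0.45), set 5 (7.77 ± 0.28), set 8 (7.02 ± 0.60) and set 7 (6.95 ± 0.58). Neighbours in this order differed by more than the larger of their standard deviations between sets 2 and 3, 6 and 5, and 5 and 8, and by less between the others, and sets 6 and 5 overlapped. Sets 5 and 6 of Cxcl1 also lay above sets 7 and 8 and below sets 1 to 4, whereas set 6 of Cxcl5 (10.25 ± 0.26) was level with set 3 (10.25 ± 0.38). Over the 6 other sets the gene means closest to those of Cxcl2 were those of Tnfaip2 (Pearson's r = 0.998), Xpo4 (0.996), Cxcl5 (0.995), Fkbp5 (0.995) and Cxcl1 (0.995), as a description over 6 points. Their differences between sets 6 and 5 were 0.08, 0.13, 0.79, -0.09 and 0.66. Lcn2 had another order, lowest in set 3 (6.69 ± 1.18) and highest in set 8 (9.70 ± 0.23), with sets 5 and 6 at 8.27 ± 0.45 and 9.01 ± 0.53. Hoxa10 was lowest of the 8 sets in set 6, at 8.30 ± 0.08, beside 8.62 ± 0.10 in set 5 and 9.04 ± 0.04 in set 7. Set 4 was closest to it, at 8.47 ± 0.33. Pdk1 had standard deviations of 1.07 in set 5 and 1.04 in set 6, since 1 array in each set was far above the other 2.

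**Figure D5:**
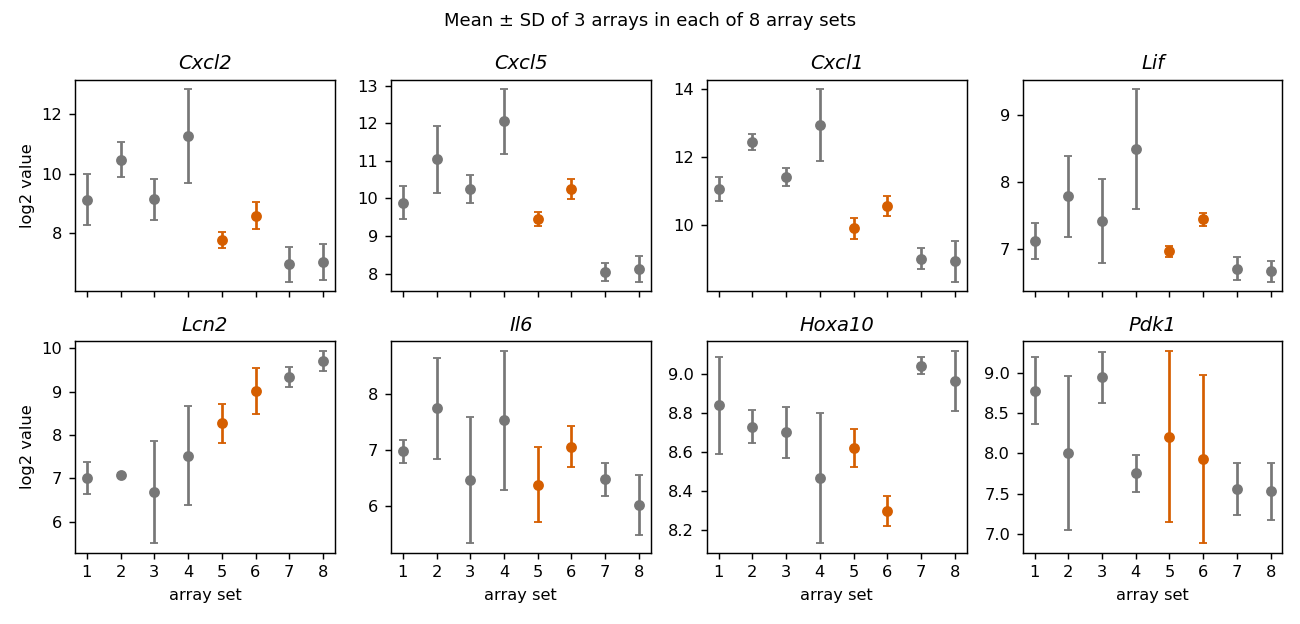
Mean ± SD of the log2 values of 3 arrays in each of the 8 array sets (horizontal axis) for 8 genes, with sets 5 and 6 in colour. For Cxcl2 the 2 sets lie at 7.77 and 8.58, above sets 7 and 8 and below sets 1 to 4, and for Pdk1 the bars of both sets exceed 1 log2 unit.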

How the data were processed

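RNA of 24 samples of MLO-Y4 cells was hybridised to 24 Affymetrix arrays. The authors deposited log2 expression values, for which the submitters' processing notes name RMA, in a version not given in the sources used here. RMA subtracts background, gives all arrays 1 distribution and sums up the probes of a probe set, so values are relative and carry no counts. They were used as deposited. The number of arrays limits the precision, and no column was without a sample.

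Of 22690 probe sets, 20380 had 1 gene symbol in the platform annotation, 691 several and 1555 none, and 64 were controls. The brightest probe set stood for each of 4956 genes that had more than 1. No pair of arrays held identical values, and array medians ran from 6.71 to 6.80. A mean for each of 8 sets was fitted by lmFit and eBayes of limma 3.58.1, run in R 4.3.3, with a mark at an adjusted p under 0.05. Since the labels do not tie arrays to cultures, p-values cover only the spread among these arrays, which may be technical, and because the sets were chosen on these values they are no evidence. The members, lists and tests were chosen with earlier results of these data known. The rule for named genes took up to 14 genes in each direction without overlap and with a mean of at least 6, the 4 members of each list with the largest difference, 9 further genes and the 5 genes most like the leading gene. The text names some of them, and further list members and markers in passing. Promoter windows from RefSeq (GRCm38.p6) were matched by symbol, for 9887 of the 12393 genes. Replicate, column and pair blocks, moderation, weights, scaling, filters, probe sets, thresholds and left-out arrays were tried as alternatives.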

Additional observations from a re-analysis of the deposited data

How the results depend on the processing

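The number of genes called by limma at an adjusted p under 0.05 was 0 with the scaling as deposited, quantile normalization again, median centring, the filter on dim genes (7971 genes left), the mean of all probe sets, every probe set, the column and neighbour-pair blocks, trend and robust moderation, array weights and the 6 arrays alone, and 0 to 0 without each array in turn. It was also 0 at an adjusted p under 0.01 or 0.10 and with a 1.5-fold minimum, and 431 at an unadjusted p under 0.05. With the replicate number of the labels as a replicate block it was 0, with 419 genes at an unadjusted p under 0.05. Arrays of the same number did not deviate together (correlations of -0.23, -0.34 and -0.17), whereas neighbouring columns did (0.44, 0.55 and 0.50), so the neighbour-pair block was added after the data were seen. Deviations within a set cancel, so the negative values follow in part from the positive ones and are no separate evidence on replicate numbers. The 1203 genes without overlap became 683 with the filter on dim genes, 2073 with every probe set, 4347 with the same sign in all 3 pairs in place of no overlap and 2198 to 2661 without each array in turn, and 3798 without the pair of arrays 21 and 22, whose labels differ. Fewer arrays or more features give more such genes by construction. The count of 2-fold differences was 0 except without array 22 (flow 24 h replicate 1), where 2 genes passed, so the range was 0 to 2. Of 33 lists 23 had a median above 0, 12 after centring, which put 11 of them below 0, 20 to 26 without each array in turn and 20 without arrays 21 and 22. Of 68 genes examined 11 changed sign in at least 1 of the alternatives, namely Cox15 with the mean of all probe sets (0.01) and Pdk1, Car9, Thbs1, Adm, Acta1, Col3a1, Ifnb1, Nos2, Ddit4 and Mt1 without 1 array.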

Other observations

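Chosen after their values were seen, the genes with the smallest unadjusted p were dim. Fabp6, an ileal bile acid binding protein, had the smallest p in the fit over 8 sets, at log2 values of 3.31, 3.18 and 3.08 on arrays 5, 13 and 21 and of 2.81, 2.80 and 2.75 on arrays 6, 14 and 22 (limma, adjusted p = 0.49). Cdcp1, a transmembrane glycoprotein, had the smallest p with the neighbouring pairs as a block, at 5.09, 5.03 and 5.28 in set 5 and at 5.32, 5.42 and 5.59 in set 6 (limma, adjusted p = 0.116). Ddit4, an inhibitor of mTOR signaling that responds to low oxygen and other stress, was highest on arrays 13 and 14, at 10.57 and 10.86, against 9.60 to 9.84 on the other 4. Mt1, a metallothionein, was also highest on those arrays, at 12.10 and 12.22, against 11.37 to 11.64. Both stood higher on arrays 13 and 14 as Pdk1 did, but within each pair they were higher on the array of set 6, by 0.23 and 0.14 on average. Without array 14 the differences of the set means were -0.12 for Ddit4 and -0.08 for Mt1, and without array 5 that of Mt1 was -0.01.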
